A study of Drosophila melanogaster with 10 samples.

Results

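The genes described here encode nucleolar processing and ribosome assembly factors, proteins that cut, modify and fold the ribosomal RNA precursor and carry the 2 ribosomal subunits through assembly. They were chosen by name, with earlier results of these data known: 38 fly gene symbols were listed and looked up by FlyBase gene identifier in the gene annotation. Of these, 37 were found, and Noc4 was not analysed here. All 37 passed the low-count filter, as did 13831 of the 17412 gene identifiers of the series. By their known roles 12 act in the small subunit processome or the pre-40S particle, 15 in the nucleolar pre-60S particle and 4 in 60S export and cytoplasmic maturation, and 6 are other nucleolar or linked proteins.

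Ribosomes are built in the nucleolus, where RNA polymerase I transcribes a long precursor of the 18S, 5.8S and 28S rRNAs. The U3 small nucleolar RNP and the small subunit processome release the pre-40S particle, a separate set of helicases, GTPases and scaffold proteins shapes the pre-60S particle, and export adaptors and late release factors finish both in the cytoplasm. In the fly testis, dividing spermatogonia and growing spermatocytes have prominent nucleoli, and spermatids are transcriptionally far less active.

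RNA-seq counts per gene were obtained from whole testes of Drosophila melanogaster males under 2 days old, as total RNA depleted of ribosomal RNA, with 5 groups of 2 libraries and 100 pairs of testes a library. Wild type (WT), whose testes hold every germ cell stage, was raised at 22°C for 10 days, and the sa mutant (genotype label sa-/-, allele not stated), which lacks a testis-specific TBP-associated factor, at 22°C for 12 days. The knockdowns carried w;B9d1RNAi, w;Tekin-CRNAi (spelled so in the label, for Tektin-C) or w;Klp59DRNAi, each with bam-Gal4, a driver active in late spermatogonia, and UAS-dicer2, and were kept at 22°C for 3 days and at 30°C for 8 days. The stage label reads young spermatocyte for B9d1 KD, mature spermatocyte for the remaining knockdowns and the mutant, and all stages for WT. No group has the driver, Dicer-2 and the higher temperature without a knockdown, so these cannot be told apart from the knockdowns in any comparison with WT. In bulk testes, fewer cells of a type and less RNA per cell cannot be told apart.

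The 10 libraries held 17621525 to 30798942 counts. The 2 libraries of each group differed by little more than counting noise: in a group, 5.66% to 6.0% of the genes counted 50 to 5000 times fell outside a 95% binomial range. They were summed and counted as 1 sample, so no comparison has a replicate check and no p-value is given; "2-fold higher" below is a difference between 2 samples. Levels are counts per 1000000 (CPM) after TMM scaling, which matches libraries on the bulk of their genes. B9d1 stood at 8.91 and 9.91 CPM in its knockdown against 108 to 195 CPM in the other 8 libraries, and sa at 3.73 and 3.24 CPM in its mutant against 36.7 to 169 CPM elsewhere. The other 2 knockdowns went against their labels. Libraries that carry the Tektin-C KD label held 201 and 204 CPM of Tektin-C but 29.3 and 30.0 CPM of Klp59D, and libraries that carry the Klp59D KD label held 333 and 337 CPM of Klp59D but 12.7 and 11.6 CPM of Tektin-C. These groups are therefore called "the Tektin-C label" and "the Klp59D label", which says only what the label reads.

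WT was the group with the lowest level for most of the 37 genes. It was lowest for 26 (70.3%, against 32.3% of all 13831 genes) and highest for none (against 26.9%). B9d1 KD was the highest group for 18 (48.6%, against 18.6% of all genes) and the sa mutant for 16 (43.2%, against 25.7%). The group under the Tektin-C label was highest for 2 (Sbds and Ns4, 5.41% against 19.9%). That under the Klp59D label was highest for 1 (vito, 2.70% against 8.96%). With RLE scaling the counts of members were the same. With library size alone WT was lowest for 29 (against 42.0% of all genes) and highest for none (against 16.1%). Altogether 32 genes (86.5%, against 42.5% of all genes) were at least 2-fold above WT in 1 or more altered groups. In all 4, kz and Dbp73D were so (5.41% of members, against 9.58% of all genes), and 7 members with library size alone (18.9%, against 14.4%). The ratio of the highest to the lowest group ran from 1.35 for Ns4 to 7.55 for Dbp73D with a median of 3.04, under the median of 3.81 over all genes. The 37 genes together took 0.101% of counts in both WT libraries, 0.150% under the Tektin-C label, 0.219% and 0.222% under the Klp59D label, 0.297% and 0.298% in B9d1 KD and 0.309% in both libraries of the sa mutant.

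**Figure D1:**
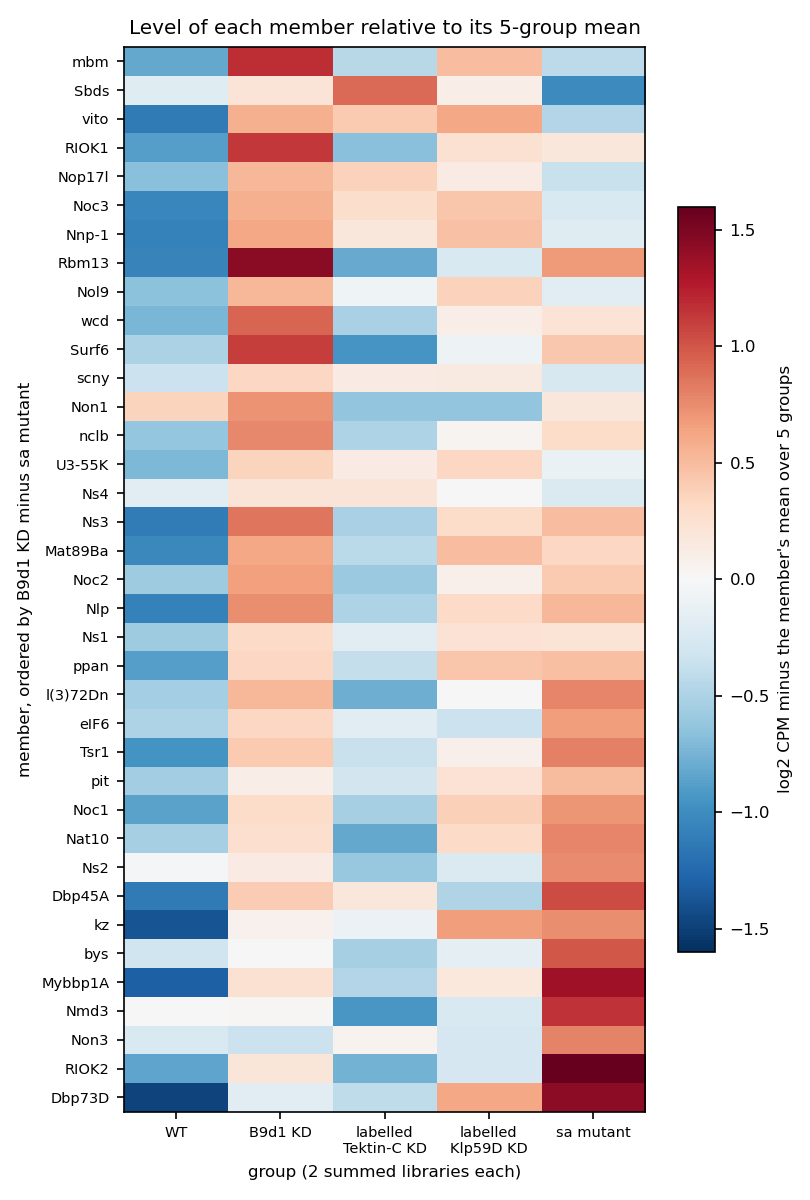
Level of each of the 37 genes (rows) in the 5 groups (columns), as log2 CPM minus the gene's own mean over the 5 groups, ordered by B9d1 KD minus sa mutant. The WT column is the lowest for 26 genes; the upper rows are highest in B9d1 KD (Sbds, vito and Ns4 excepted) and the lower rows in the sa mutant.

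In B9d1 KD, 25 of the 37 genes (67.6%) were at least 2-fold above WT and none was 2-fold below; of all genes tested, 27.3% were 2-fold higher and 25.7% 2-fold lower. The median log2 fold was 1.21, against 0.08 over all genes, and 36 of the 37 values were above 0 (37 with library size alone, 35 with RLE factors). Of the small subunit factors 10 of 12 were called higher (median log2 fold 1.41), of the nucleolar pre-60S factors 10 of 15 (1.21), of the export and cytoplasmic factors 1 of 4 (0.62), and of the others 4 of 6 (1.30). In the sa mutant 20 genes (54.1%) were at least 2-fold above WT and none below, against 26.4% higher and 27.7% lower over all genes, with a median of 1.06 against 0.02. Under the Klp59D label 16 (43.2%) were higher and none lower, against 23.6% and 23.2%, with a median of 0.82 against 0.05. Under the Tektin-C label 8 (21.6%) were higher and none lower, against 21.2% and 17.1%, so this share was that of genes at large, and the median was 0.38 against 0.13. Among the 8349 genes with a mean level in the range of the members, 16.5% were higher and 13.7% lower under this label. Of the same 8349 genes, 26.4% were higher in B9d1 KD, 25.9% in the sa mutant and 20.9% under the Klp59D label. All 4 comparisons share the WT sample. Scaling by library size alone raised the median of all genes by 0.58 in B9d1 KD, 0.77 in the sa mutant, 0.55 and 0.11 under the Klp59D and Tektin-C labels, and gave 30, 33, 28 and 8 members at least 2-fold higher, the last the same count as with TMM. The split of all genes then became 41.0% higher and 16.4% lower in B9d1 KD, 44.5% and 18% in the sa mutant, 37.5% and 14.7% under the Klp59D label and 23.7% and 15% under the Tektin-C label. Relative to the median of all genes, the members' median stood 1.13 higher in B9d1 KD, 1.04 in the sa mutant, 0.77 under the Klp59D label and 0.25 under the Tektin-C label.

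**Figure D2:**
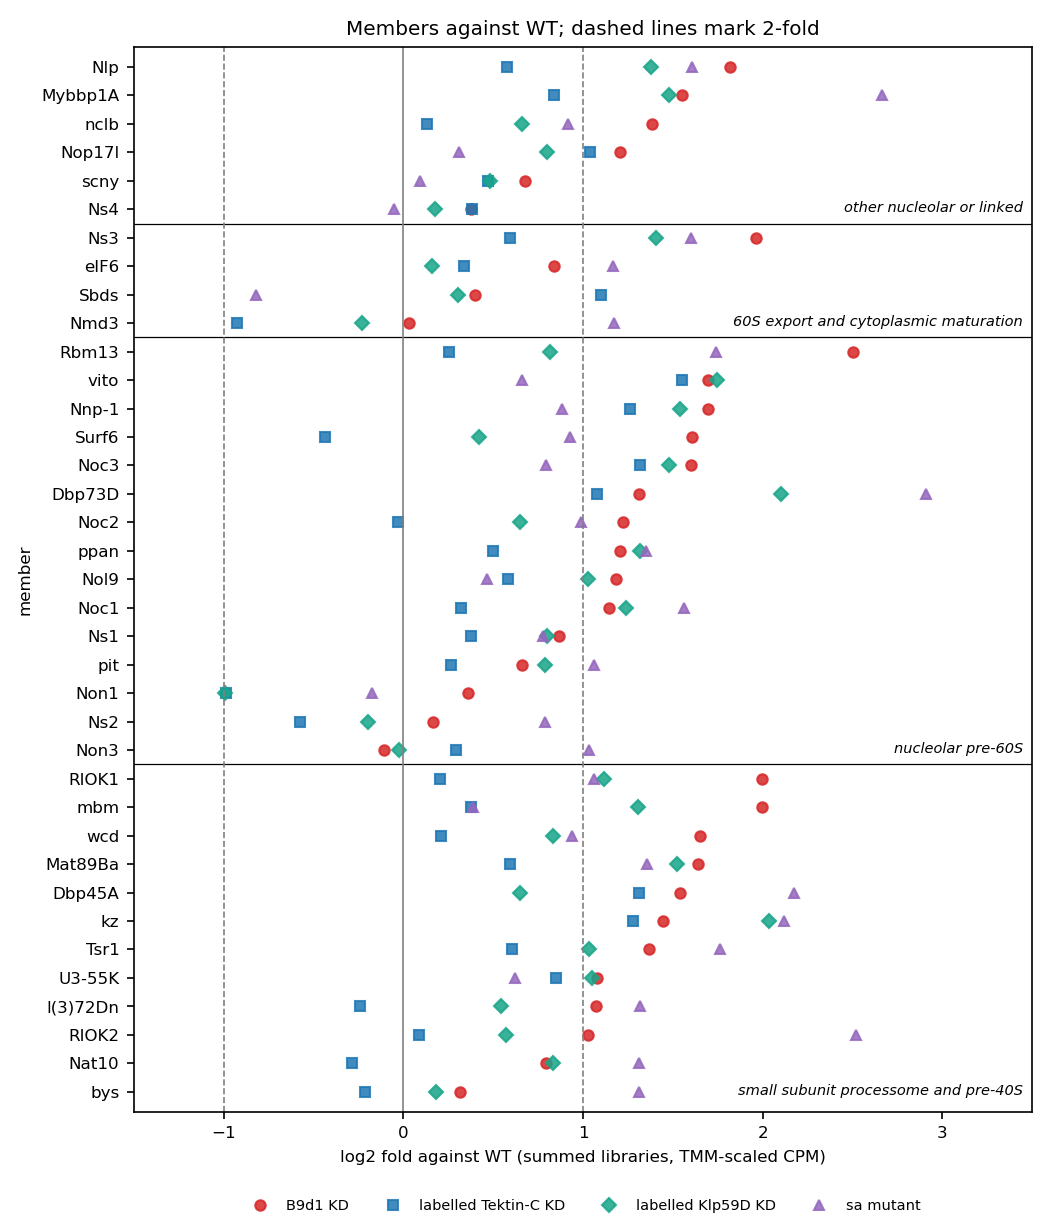
Log2 fold of each of the 37 genes against WT in B9d1 KD (circles), the groups under the Tektin-C (squares) and Klp59D (diamonds) labels and the sa mutant (triangles), in 4 blocks by role; dashed lines mark 2-fold. Most symbols lie right of 0, 25 of the circles lie at or beyond the right dashed line, and the widest spread within a row belongs to RIOK2, Rbm13, Surf6 and Nmd3 among others.

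Among the small subunit factors, RIOK1, mbm and wcd were highest in B9d1 KD. RIOK1, an atypical kinase of the late pre-40S particle, lies at 3L:11646234-11648474 (dm6, minus strand). It stood at 33.9 and 33.9 CPM in the B9d1 KD libraries, 17.9 and 18.7 under the Klp59D label, 17.6 and 17.7 in the sa mutant, 9.61 and 9.84 under the Tektin-C label and 8.75 and 8.17 in WT. B9d1 KD was separate from every other library, at 4.0-fold (3.51 to 4.6) the WT level; intervals in parentheses are exact 95% Clopper-Pearson intervals and cover counting error only. The gene mbm (mushroom body miniature) encodes a nucleolar protein needed for small subunit production in fly neuroblasts. Its levels were 49.5 and 48.3 CPM in B9d1 KD, 31.4 and 29.2 under the Klp59D label, 15.3 and 16.4 under the Tektin-C label, 16.1 and 16.0 in the sa mutant and 11.8 and 12.6 in WT. B9d1 KD was 3.99-fold (3.58 to 4.48) above WT, whereas the sa mutant was 1.31-fold (1.16 to 1.49) above it. The wcd product, an Utp18 homologue of the U3 particle, was the least abundant member by counts, with 101 summed counts in WT. It stood at 4.01 and 3.01 CPM in WT, 3.85 and 4.19 under the Tektin-C label, 5.79 and 6.64 under the Klp59D label, 6.62 and 6.79 in the sa mutant and 10.8 and 11.3 in B9d1 KD, 3.14-fold (2.56 to 3.95) above WT. The 2 WT libraries of wcd differed by 0.41 on the log2 scale, the widest gap between paired libraries of any member.

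RIOK2, Dbp45A and kz had their highest level in the sa mutant. RIOK2, the second RIO kinase of the pre-40S particle (3R:25265844-25267757, plus strand), held 151 and 144 CPM there, 51.2 and 53.2 in B9d1 KD, 37.7 and 38.2 and 28.7 and 25.8 under the Klp59D and Tektin-C labels, and 27.1 and 24.2 in WT. The sa mutant was thus 5.74-fold (5.33 to 6.21) above WT and B9d1 KD 2.04-fold (1.88 to 2.22). An antisense RNA, asRNA:CR45214, covers 48.5% of the RIOK2 exons and stood at 6.79 CPM in WT, 2.93 in the sa mutant and 0.622 to 1.41 in the knockdowns. The strand setting of the counting is not given in the sources used here, so the reads of the pair may not be fully separate. The partner was nearest to RIOK2 in WT, where the summed libraries held 25.6 CPM of RIOK2. Dbp45A, a DEAD-box RNA helicase, held 64.5 and 66.9 CPM in the sa mutant, 42.3 and 42.4 in B9d1 KD, 36.3 and 36.2 under the Tektin-C label, 23.0 and 22.7 under the Klp59D label and 15.3 and 13.9 in WT. It was 1 of 7 members that were higher under the Tektin-C label than under the Klp59D label. The helicase gene kz (kurz, DHX37 in human) held 21.6 and 22.1 CPM in the sa mutant, 21.1 and 20.3 under the Klp59D label, 14.7 and 12.7 in B9d1 KD, 12.3 and 12.1 under the Tektin-C label and 4.74 and 5.23 in WT. Its folds over WT were 4.34-fold (3.67 to 5.24) in the sa mutant and 4.11-fold (3.48 to 4.95) under the Klp59D label, whose intervals overlap.

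Mat89Ba, a Nol6 homologue of the processome, stood at 24.7 and 22.5 CPM in B9d1 KD, 22.1 and 21.2 under the Klp59D label, 18.3 and 20.3 in the sa mutant, 11.2 and 11.6 under the Tektin-C label and 6.49 and 8.44 in WT. U3-55K, a protein specific to the U3 particle, had the narrowest range of the small subunit factors. It stood at 43.7 and 41.1 CPM in B9d1 KD, 42.1 and 40.9 and 34.6 and 37.3 under the Klp59D and Tektin-C labels, 30.4 and 31.1 in the sa mutant and 19.9 and 20.1 in WT, so the first 2 groups overlapped. The remaining 4 small subunit factors, l(3)72Dn, Nat10, bys and Tsr1, were all at least 2-fold above WT in the sa mutant, by 2.48-fold to 3.40-fold. Of these, bys (bystin) and the 18S acetyltransferase gene Nat10 were under 2-fold in B9d1 KD, at 1.24-fold (1.12 to 1.38) and 1.73-fold (1.48 to 2.05).

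Among the nucleolar pre-60S factors, Rbm13 had the largest fold of all members in B9d1 KD. Rbm13 (FBgn0030067, X:8901699-8903761, plus strand, 4 exons) is the fly Mak16, a protein of early pre-60S particles. It stood at 87.2 and 85.8 CPM in B9d1 KD, 50.1 and 51.8 in the sa mutant, 27.6 and 26.3 under the Klp59D label, 17.5 and 18.8 under the Tektin-C label and 14.8 and 15.6 in WT. Each group was separate from the next, and B9d1 KD was 5.66-fold (5.15 to 6.27) above WT. Surf6, a homologue of yeast Rrp14, stood at 36.4 and 35.9 CPM in B9d1 KD, 21.5 and 23.6 in the sa mutant, 15.7 and 16.1 under the Klp59D label, 12.8 and 11.1 in WT and 7.89 and 9.57 under the Tektin-C label. It was 3.04-fold (2.72 to 3.43) above WT in B9d1 KD and 1.35-fold lower (1.17 to 1.56) under the Tektin-C label. Dbp73D, a helicase related to yeast Dbp6, had the largest fold of any member in any comparison. Levels were 72.6 and 73.2 CPM in the sa mutant, 42.9 and 40.4 under the Klp59D label, 23.9 and 24.1 in B9d1 KD, 21.6 and 19.3 under the Tektin-C label and 10.3 and 9.09 in WT, giving 7.52-fold (6.68 to 8.56) over WT in the sa mutant and 4.29-fold (3.80 to 4.89) under the Klp59D label.

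Non1, the fly Nog1 GTPase (2R:9396265-9398734, minus strand), was the most abundant member in WT and lay above WT in B9d1 KD, below it in both other knockdowns and below it in the sa mutant, where library size alone reversed the direction. It stood at 303 and 306 CPM in B9d1 KD, 239 and 235 in WT, 209 and 211 in the sa mutant, 119 and 119.7 under the Tektin-C label and 122 and 116 under the Klp59D label. Both of the last groups lay just inside the 2-fold line, at 1.98-fold lower (1.92 to 2.06) and 1.99-fold lower (1.93 to 2.06) than WT, while B9d1 KD was 1.28-fold (1.25 to 1.32) above it. With library size alone the log2 folds of these groups against WT were -0.88 under the Tektin-C label and -0.45 under the Klp59D label. Non3, a homologue of yeast Rpf2, which brings the 5S RNP into the particle, held 189 and 195 CPM in the sa mutant and 92.5 and 95.1 in WT. It was the one member with a value below WT in B9d1 KD, at 88.1 and 86.3 CPM, a difference that reversed under library size alone. The groups under the Tektin-C and Klp59D labels held 114 and 116 and 93.8 and 90.9 CPM of it. Ns2, a nucleolar GTPase of the nucleostemin family, held 88.1 and 88.8 CPM in the sa mutant, 58.5 and 56.1 in B9d1 KD, 50.6 and 51.6 in WT, 45.1 and 44.1 under the Klp59D label and 35.4 and 33.4 under the Tektin-C label. Ns1, the fly nucleostemin, had the smallest range in this set, from 39.5 and 38.8 CPM in WT through 50.7 and 51.0 under the Tektin-C label to 65.8 and 68.3 in the sa mutant, 70.2 and 66.3 under the Klp59D label and 70.4 and 72 in B9d1 KD. The last 3 groups lay within 1.06-fold of each other.

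Nnp-1 (the fly Rrp1), Noc3 and vito (a Nol12 homologue) were lowest in WT and next lowest in the sa mutant, a pattern picked out after their values were seen. Group levels of Nnp-1 were 46.7 CPM in WT, 86.3 in the sa mutant, 112 under the Tektin-C label, 136 under the Klp59D label and 151 in B9d1 KD. Those of Noc3 were 32.1, 55.5, 80.0, 89.5 and 97.6 CPM in the same order. For vito, WT was at 9.65 CPM and the sa mutant at 15.3, and the 3 knockdowns were close together at 28.4, 32.5 and 31.4. All 3 genes were at least 2-fold above WT in each knockdown and under 2-fold in the sa mutant. The place of the sa mutant depended on the scaling. With library size alone all 3 passed 2-fold there too, and the sa mutant lay above the Tektin-C label for Nnp-1 and Noc3. With TMM, U3-55K, Nol9, Nop17l and scny were also lowest in WT and next lowest in the sa mutant. Noc2, which pairs with Noc1 and with Noc3 in yeast pre-60S particles, and Noc1 had other orders: Noc1 was highest in the sa mutant (54.3 CPM) and Noc2 in B9d1 KD (52.5 CPM), against 18.3 and 22.5 CPM in WT.

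The 4 late 60S factors each had an order of their own. Nmd3 (X:2182818-2184668, minus strand), the export adaptor of the 60S subunit, held 40.2 and 39.7 CPM in the sa mutant, 18.7 and 17.6 in B9d1 KD, 17.4 and 18 in WT, 13.8 and 16.3 under the Klp59D label and 9.35 and 9.29 under the Tektin-C label. B9d1 KD and WT overlapped, the sa mutant was 2.25-fold (2.04 to 2.49) above WT, and the Tektin-C label was 1.90-fold lower (1.67 to 2.16). Sbds and eIF6 act on one step, since Sbds helps to release eIF6 from the 60S surface before the subunits can join. Sbds (3L:6752913-6754029, plus strand) stood at 217 and 210.1 CPM under the Tektin-C label, 129.8 and 132 in B9d1 KD, 122 and 123 under the Klp59D label, 99.7 and 98.8 in WT and 56.2 and 56.2 in the sa mutant. This order was opposite to that of Nmd3 at both ends. For eIF6 the levels were 117 and 119.6 CPM in the sa mutant, 93.2 and 95 in B9d1 KD, 66.4 and 66.6 under the Tektin-C label, 58.1 and 59.4 under the Klp59D label and 49.1 and 55.9 in WT. In the sa mutant eIF6 was thus 2.25-fold (2.12 to 2.38) above WT and Sbds 1.77-fold lower (1.68 to 1.86). Ns3, the fly Lsg1 GTPase that releases Nmd3, resembled the nucleolar factors, with 22.9 and 24.3 CPM in B9d1 KD, 18.3 and 18.5 in the sa mutant, 16.3 and 15.9 under the Klp59D label, 8.28 and 9.88 under the Tektin-C label and 6.71 and 5.43 in WT. Its B9d1 KD level was 3.89-fold (3.34 to 4.61) that of WT.

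Of the other nucleolar or linked genes, Nlp, the histone chaperone nucleoplasmin, stood at 200.3 and 194 CPM in B9d1 KD, 169.6 and 171 in the sa mutant, 145 and 146 under the Klp59D label, 83.3 and 83.5 under the Tektin-C label and 53.6 and 57.9 in WT. No groups overlapped, and B9d1 KD was 3.52-fold (3.35 to 3.71) above WT. The gene nclb (no child left behind) encodes a PWP1 homologue that fly testes need to keep their germline stem cells. It stood at 38 and 38.1 CPM in B9d1 KD, 27.2 and 27.8 in the sa mutant, 24 and 22.1 under the Klp59D label, 15.9 and 15.9 under the Tektin-C label and 15 and 14.1 in WT. Mybbp1A (X:629773-633633, plus strand), a nucleolar homologue of yeast Pol5, held 88.1 and 87.5 CPM in the sa mutant, 38.9 and 41.9 in B9d1 KD, 39.8 and 37.3 under the Klp59D label, 24.5 and 24.8 under the Tektin-C label and 15.2 and 12.5 in WT. The sa mutant was 6.35-fold (5.74 to 7.07) above WT, and B9d1 KD overlapped with the Klp59D label. Ns4, another GTPase of the nucleostemin family, was the flattest member, from 51.9 and 50.4 CPM in the sa mutant to 69.6 and 68.6 under the Tektin-C label, with 52.4 and 53.6 in WT, 60.2 and 59.8 under the Klp59D label and 68.2 and 69.6 in B9d1 KD. Chosen after its values were seen, scny, the USP36 deubiquitinase gene, was also flat, between 80.6 CPM in WT and 129 in B9d1 KD. It ends next to the end of vito on the other strand (3L:5769002-5776271, plus strand, against 3L:5776324-5777333), and this neighbour pair differed in range.

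**Figure D3:**
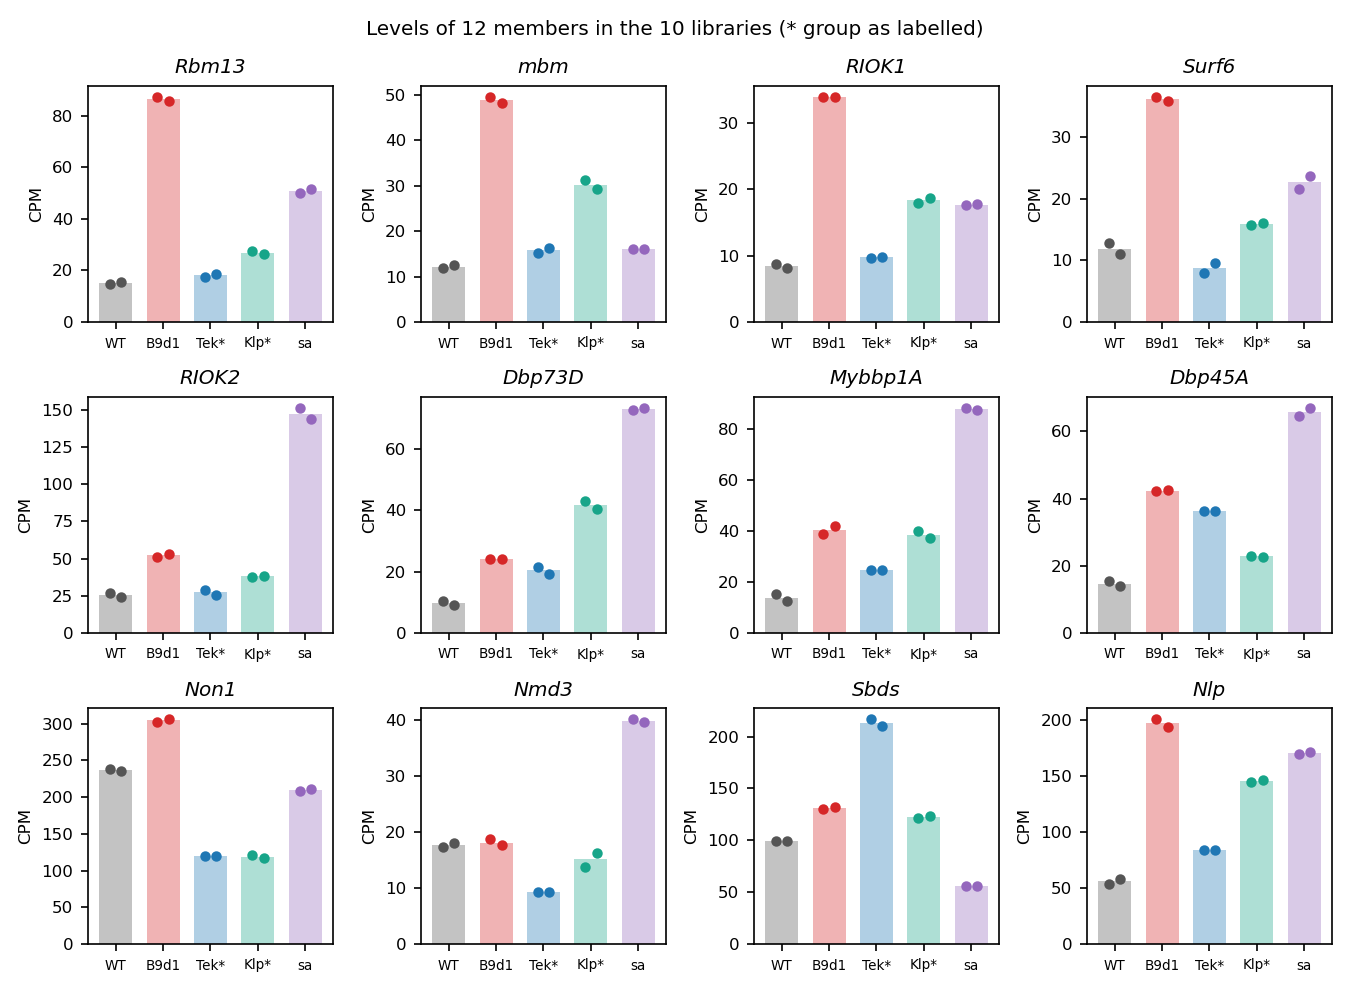
CPM of 12 of the genes in the 10 libraries (points) with the group level from the summed libraries (bars from 0; Tek* and Klp* are the groups as labelled). Rbm13, mbm, RIOK1 and Surf6 are highest in B9d1 KD, RIOK2, Dbp73D, Mybbp1A, Dbp45A and Nmd3 in the sa mutant, and Sbds under the Tektin-C label.

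B9d1 KD was compared with the mean of the other 2 knockdowns, which share its driver, Dicer-2 and temperature. Here 6 of 37 members (16.2%) were higher by 2-fold or more and none was lower by as much, against 8.62% and 12.1% of all genes, and the median log2 fold was 0.52 against -0.04. The 6 were Rbm13 (3.91-fold), Surf6 (3.05-fold), Non1 (2.56-fold), RIOK1 (2.53-fold), mbm (2.23-fold) and wcd (2.19-fold). The lowest were Sbds, Dbp73D and Non3, at log2 folds of -0.30, -0.28 and -0.24. B9d1 KD lay above both other knockdowns for 27 members (73.0%, against 37% of all genes), and with library size alone for 28 (75.7%, against 44.9%). The full order B9d1 KD, Klp59D label, Tektin-C label, WT from high to low held for 17 members (45.9%, against 15.9%). The count of 6 depended on the reference: against the Tektin-C label alone 13 members were 2-fold higher, and against the Klp59D label alone 3 were. No share of all genes is given for these single references, so the 13 and 3 cannot be set against genes at large.

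Between the other 2 knockdowns, the Klp59D label was above the Tektin-C label for 30 of 37 members (81.1%, against 52.0% of all genes), by small amounts. Nat10 at 2.17-fold (1.89 to 2.52) and Dbp73D at 2.04-fold (1.89 to 2.20) were at least 2-fold higher (5.41%, against 6.75% of all genes) and none was 2-fold lower, against 14.5%. The median log2 fold was 0.53 against 0.04. Among the genes with a mean level in the range of the members, 2.84% were 2-fold higher and 10.5% lower, so the members' share higher was above theirs. Dbp73D lay under the 2-fold line without the first library under the Klp59D label (log2 fold 0.98, leaving 1 call) and without the second under the Tektin-C label (0.95), where Surf6 came in at 1.01 and the count was still 2. Library size alone moved the median of all genes by 0.44 here, with 17 members then called higher, against 18.7% of all genes higher and 7.32% lower.

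B9d1 KD and the sa mutant, the 2 groups with the highest summed levels, were also compared directly. Between them 3 of 37 (8.11%) were at least 2-fold higher in B9d1 KD and 5 (13.5%) 2-fold lower, both smaller shares than the 23.9% and 16.1% of all genes, and the median was 0.24 against 0.05. Among the genes with a mean level in the range of the members the shares were 21.2% higher and 11.8% lower. Beside these, the members' share lower was not the smaller one. Higher in B9d1 KD were mbm at 3.05-fold (2.82 to 3.31), Sbds at 2.33-fold (2.23 to 2.44) and vito at 2.05-fold (1.88 to 2.24). Lower in B9d1 KD were Dbp73D at 3.03-fold lower (2.85 to 3.23), RIOK2 at 2.81-fold lower (2.70 to 2.94), Non3 at 2.20-fold lower (2.13 to 2.28), Nmd3 at 2.20-fold lower (2.04 to 2.38) and Mybbp1A at 2.17-fold lower (2.06 to 2.28). With library size alone 2 were higher and 6 lower, and all genes split 20.5% to 20.9%. The 2 RIO kinases, which act on the same particle, differed in direction: RIOK1 was 1.91-fold (1.77 to 2.08) higher in B9d1 KD than in the sa mutant and RIOK2 2.81-fold lower (2.70 to 2.94).

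**Figure D4:**
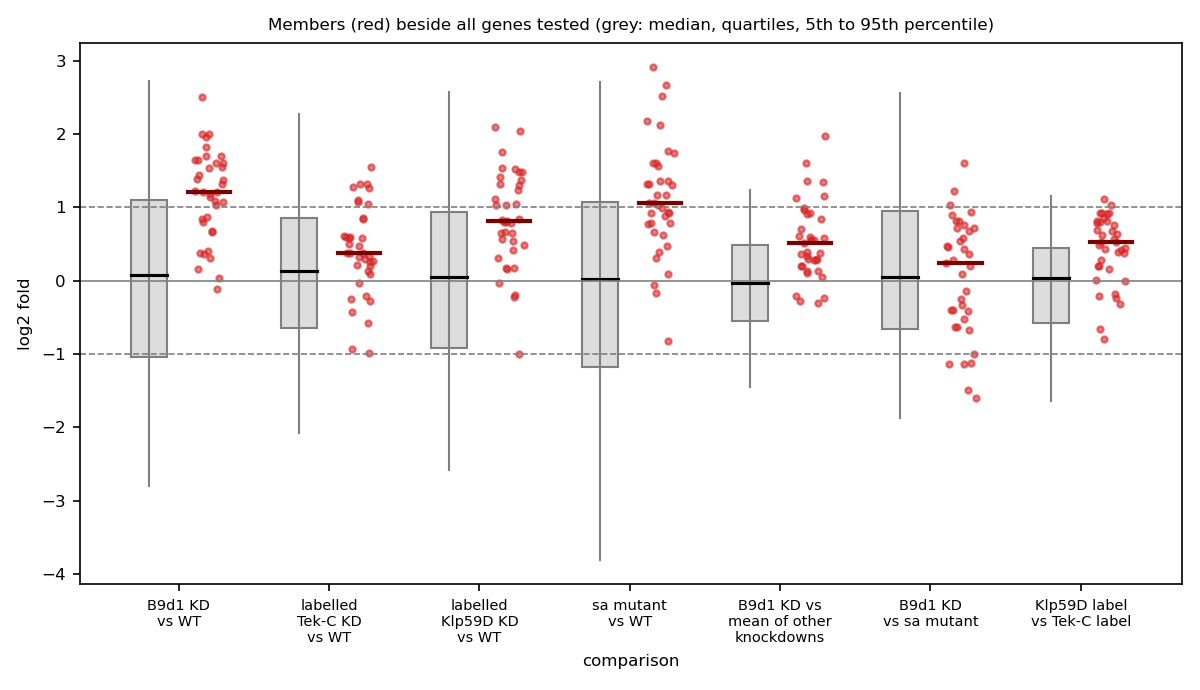
Log2 folds of the 37 genes (red points, dark red bar for their median) in the 7 comparisons, beside all 13831 genes (grey box for the quartiles, black bar for the median, line from the 5th to the 95th percentile). The members' median lies at 1.21 in B9d1 KD against WT and at 0.24 in B9d1 KD against the sa mutant; dashed lines mark 2-fold.

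The 7 members on the X chromosome (kz, Nat10, bys, Rbm13, Nmd3, Ns3 and Mybbp1A) were all at least 2-fold above WT in the sa mutant (median log2 fold 1.6), whereas 13 of the 30 autosomal members were (0.93). Over all genes the shares were 27.2% on X and 26.4% on autosomes. With library size alone the counts were 7 of 7 and 26 of 30 (medians 2.37 and 1.70), against 46.8% and 44.2% of all genes, so the split in calls depended on the scaling. In B9d1 KD against WT the X-linked members were not set apart in this way, with 4 of 7 (1.44) beside 21 of 30 (1.21), against 25.9% and 27.7% of all genes. This split was noticed after the values were seen and rests on 7 genes.

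Per kilobase of exon the members covered a wide span of levels in WT. The highest were Non1 at 104 CPM per kb, Sbds at 95.7 and Non3 at 85.9, and the lowest kz at 1.27, Mat89Ba at 1.98 and wcd at 2.09. The median was 9.89 CPM per kb in WT, 10.4 under the Tektin-C label, 17.3 under the Klp59D label, 21.6 in the sa mutant and 24.6 in B9d1 KD. The 3 members with the highest level in WT were thus between 1.08-fold lower and 1.32-fold higher in B9d1 KD than in WT. Antisense overlap above 15% of the exons affected Tsr1 and Noc2 besides RIOK2. Tsr1 shares 19.4% with Tbc1d8-9, which stood at 67.4 CPM in WT, above the 26.4 CPM of Tsr1 there. In the altered groups Tbc1d8-9 stood at 32.1 to 56.6 CPM, below Tsr1 in each. As the strand setting is not given, the WT level of Tsr1, and so its folds over WT, may hold reads of the partner. The genes across Noc2 were at 0.124 CPM or below.

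Other parts of the pathway, from lists drawn up with earlier results of these data known, differed in how far they went with the members. Of 14 measured further pre-ribosome factors (17 listed), 10 were at least 2-fold above WT in B9d1 KD and none below (median log2 fold 1.23), and 7 in the sa mutant (0.95). Of 9 measured RNA polymerase I genes (10 listed), 5 were higher and 2 lower in B9d1 KD (1.24), and 6 and none in the sa mutant (1.47). The initiation factor gene Taf1B was the highest, at 7.14 CPM in WT and 40.8 in B9d1 KD (log2 fold 2.51). The subunit genes Polr1C and Polr1E were the lower ones, from 104 and 139 CPM in WT to 29.5 and 60.2 in B9d1 KD (-1.81 and -1.21). The list of core proteins of small nucleolar RNPs, 8 measured of 9 listed, had a median of 0.13 in B9d1 KD (0.72 with library size alone), with 2 higher and none lower, and 5 of 8 were higher in the sa mutant (1.12). The 2 higher in B9d1 KD, also among the 5, were Nopp140, a chaperone, and CG4038. CG4038 rests on few counts, at 0.172 CPM in WT and 1.56 in B9d1 KD, where the lowest member in WT held 3.48 CPM. Fib, the rRNA methyltransferase fibrillarin, was at 14.2 CPM in B9d1 KD, 16.8 in WT and 27.3 in the sa mutant, whereas the nucleolar chaperone Nopp140 was at 80.3, 22.7 and 58.6. Of 11 RNA exosome genes, 5 were higher in B9d1 KD (0.75) and 4 in the sa mutant (0.87), and none lower in either. The shares of all genes beside these counts are the 27.3% higher in B9d1 KD and 26.4% in the sa mutant given above. With library size alone they were 41.0% and 44.5%. The counts higher in B9d1 KD then became 13 of the pre-ribosome factors, 6 of the polymerase genes, 2 of the snoRNP proteins and 8 of the exosome genes. In the sa mutant they became 14, 8, 8 and 10. Rrp6, the nuclear exonuclease of the exosome, was at 213 CPM in WT, at 437 for B9d1 KD, 686 and 390 under the Tektin-C and Klp59D labels and 112 in the sa mutant.

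The ribosomal protein genes listed here had a lower median fold than their assembly factors in each comparison with WT, with TMM, RLE and library size alone. They were taken by a symbol pattern that leaves out symbols with a lower-case suffix, so the list is not complete. Of 66 cytosolic ribosomal protein genes none was at least 2-fold above WT in B9d1 KD and 3 were below (median log2 fold -0.14, and 0.44 with library size alone), and 1 was above and none below in the sa mutant (0.30, with 37 above and a median of 1.07 by library size alone). Under the Tektin-C label 26 were 2-fold lower (-0.83, and -0.72 with library size alone), and under the Klp59D label 11 were lower and 1 higher (-0.21, and 0.34 with library size alone). Their summed level was 26293 and 26592 CPM in the WT libraries, 20238 and 20478 for B9d1 KD, 13945 and 14071 under the Tektin-C label, 19770 and 20075 under the Klp59D label and 28076 and 28359 in the sa mutant. The summed level of the 37 assembly factors was 1333 and 1341 CPM in WT, 1846 and 1840 under the Tektin-C label, 2004 and 1985 under the Klp59D label, 2386 and 2392 in the sa mutant and 2623 and 2621 in B9d1 KD.

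Markers of several testis cell types differed between the groups along with the members. The summed level of 12 measured stem cell and spermatogonial markers (13 listed) was 308 and 306 CPM in WT, 893 and 899 for B9d1 KD, 742 in both libraries under the Tektin-C label, 920 and 921 under the Klp59D label and 567 and 565 in the sa mutant. It was thus lowest in WT like that of the members, but its highest group was another. The sum and the single genes differed here. With TMM scaling the markers' median log2 fold over WT was 1.56 in B9d1 KD and 1.55 in the sa mutant. Under the Klp59D and Tektin-C labels it was 1.33 and 0.60. By these medians the groups ranked as they did for the members with TMM, but B9d1 KD and the sa mutant were nearly tied for the markers. With library size alone the members' median was 1.79 in B9d1 KD and 1.83 in the sa mutant, so the members' own order of these groups depended on the scaling. The 16 spermatocyte markers summed to 2206 and 2211 CPM in WT, 3526 and 3515 for B9d1 KD, 4076 and 4054 under the Tektin-C label, 3258 and 3231 under the Klp59D label and 2101 and 2099 in the sa mutant. The sum and the single genes differed in the sa mutant, where 10 of the 16 were at least 2-fold above WT and 1 below (median log2 fold 1.49). The 16 spermatid markers ran the other way, with 45711 and 45783 CPM in WT, 33410 and 33526 under the Tektin-C label, 12448 and 12414 under the Klp59D label, 10611 and 10624 in B9d1 KD and 2572 and 2583 in the sa mutant. No member of these 3 lists was at 0 in any library. The 10 hub and cyst cell markers lay between 147 CPM in B9d1 KD and 255 in WT, and 14 muscle sheath markers between 1075 in B9d1 KD and 4563 in WT. The 15 accessory gland markers summed to 44.5 and 45.6 CPM in WT and up to 3030 in a library under the Klp59D label, with up to 4 of them (among SP, Acp98AB, Acp29AB, Acp33A, Mst57Dc, Sfp24Ba and Sfp33A2) at 0 in a library. Mitochondrial RNA took 7.47% to 7.57% of counts in WT and the sa mutant and 1.75% to 2.76% in the knockdowns. The part of cell makeup, accessory gland tissue and mitochondrial RNA in the members' differences was not tested.

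**Figure D5:**
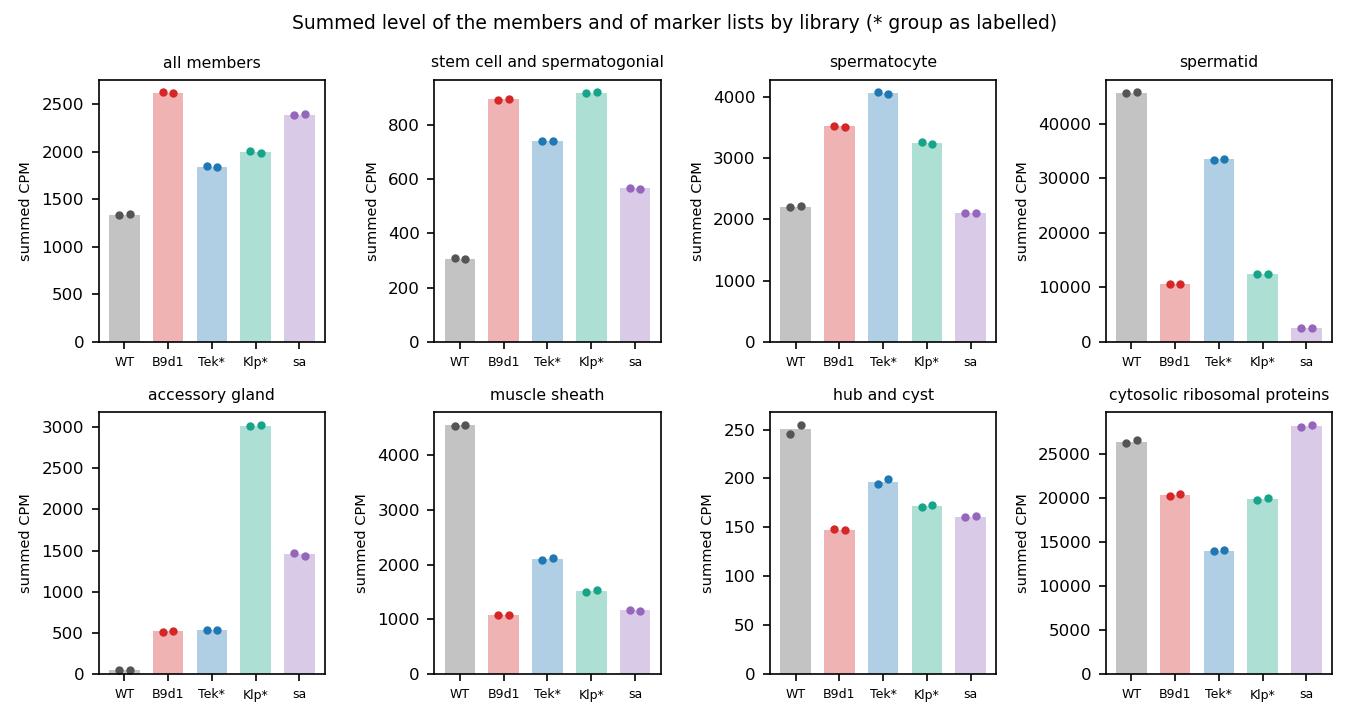
Summed CPM of the 37 genes, of 6 marker lists and of 66 cytosolic ribosomal protein genes in the 10 libraries (points) with the mean of both libraries (bars from 0; Tek* and Klp* are the groups as labelled). The members' sum runs from 1333 CPM in a WT library to 2623 in a B9d1 KD library, while the spermatid sum runs from 45783 in WT down to 2572 in the sa mutant.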

How the data were processed

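Gene-level counts of testis total RNA were used as the authors deposited them, whole numbers without normalization. The submitters' processing notes name STAR 2.5.1b, Trim Galore 0.4.1 and dm6; no source used here gives the counter, its strand setting or its annotation. Symbols and dm6 coordinates came from Ensembl release 115; Nat10 and Nol9 were matched by earlier symbols (l(1)G0020 and CG8414) whose letter case differs.

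No label says that the 2 libraries of a group came from separate flies, and they behaved as technical repeats: depth ratio 1.11 to 1.12, median squared deviation 1.04 to 1.11 times the binomial one (1.44 to 1.82 times over 5000 counts), biological coefficient of variation 0.0166. They were summed. edgeR 4.0.16 quasi-likelihood and DESeq2 1.42.0 fits (R 4.3.3) to the separate libraries served as alternative settings only. Their counts of called members needed both the 2-fold line and an adjusted p-value under 0.05. Those fits treat the 2 libraries as replicates, so their calls are no test between groups. Same-numbered libraries deviated together (r of 0.165 to 0.26 over 8285 genes in 10 pairs of groups), so the data, not the labels, pair them. Genes passed edgeR's filterByExpr. TMM factors were 0.756 (WT), 1.13 (B9d1 KD), 0.815 (Tektin-C label), 1.11 (Klp59D label) and 1.29 (sa mutant), and log2 CPM used a prior count of 2. A gene was called at 2-fold. The steps were run on simulated counts in which a small set of genes changed, in B9d1 KD alone. Such counts cannot test the choice of scaling. Without molecular identifiers, intervals cover counting error only; none is given against a mean of 2 samples.

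Members and lists were chosen with earlier results of these data known. Per-library values are given for the 3 widest-ranging members and the flattest in each role group, members 2-fold lower anywhere, the 3 highest and lowest in B9d1 KD against WT and against the other knockdowns, and the 3 highest and lowest per kilobase in WT. Alternatives were RLE factors, library size alone, other filters and prior counts, a 1.5-fold call, each library left out, and a replicate block.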

Additional observations from a re-analysis of the deposited data

How the results depend on the processing

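Of 232 counts of called members recomputed under the alternatives, 206 stayed within 1.5 times the value reported and 26 did not. Many of the 206 were 0 lower calls in both settings. Of 116 recomputed medians 37 moved beyond the spread between libraries, and of 2668 recomputed member folds 243 moved beyond their limits. No called member reversed direction among those given by library above. The direction of the rest was checked under RLE factors and library size alone, where no called member reversed. With a 1.5-fold call, 13 members were higher and 2 lower than WT under the Tektin-C label, 25 and 1 under the Klp59D label, and 1 was lower in the sa mutant. By the same call 14 were higher in B9d1 KD than in the mean of the other knockdowns, 11 higher and 9 lower than in the sa mutant, and 16 higher and 2 lower under the Klp59D than the Tektin-C label. No share of all genes at 1.5-fold is given, so these counts cannot be set against genes at large. Library size alone gave 28 higher than WT under the Klp59D label (75.7%, against 37.5% of all genes) and 33 in the sa mutant (89.2%, against 44.5%). It gave 11 in B9d1 KD against the mean of the other knockdowns (29.7%, against 15.3%) and 17 between the labels (45.9%, against 18.7%). As single references the Tektin-C label gave 13 and the Klp59D label 3, with no share of all genes given. Non1 sat on the line: it made 1 lower call under the Klp59D label with RLE factors, DESeq2 (log2 fold -1.01), a CPM over 5 (10563 genes) and no structural or mitochondrial RNA (13521 genes). The last setting also made 1 lower call under the Tektin-C label, and scaling on the compared groups made 2 (Non1 and Nmd3). Library size alone took Non1 away from the line under the Klp59D label, to a log2 fold of -0.45. Dbp73D dropped below 2-fold between the labels with RLE factors (0.97) and DESeq2, leaving 1 call. With 1 library left out, the count lower under the Klp59D label than WT was 0 to 1 and the count higher between the labels 1 to 2; both shifts came without the first library under the Klp59D label (Non1 at -1.04), and Dbp73D was also under the line without the second library under the Tektin-C label (0.95). A replicate block gave 25 members higher in B9d1 KD and 21 in the sa mutant, as did the same quasi-likelihood fit without it, and moved no other count. Depth limits wcd most, with 101 WT counts. Other causes were not tested.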
